A study of Mus musculus with 8 samples.

Results

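The genes described here are 10 genes of T cells and cytotoxic lymphocytes, namely Cd3e, Cd3g, Cd4, Cd8a, Foxp3, Gzma, Gzmb, Prf1, Nkg7 and Ncr1. They were taken by name from the 22180 genes that stood alone on a row of the array table, and each was measured on 1 row. The samples were 8 whole mammary tumors of MMTV-PyMT mice, in which the MMTV promoter, active in mammary epithelium, drives the polyoma middle T oncogene. In 4 tumors, called cKO here, the mice had floxed alleles of Mmp14 and, in addition, Cre under the MMTV promoter, written MMTV-Cre+/Mmp14(f/f). The other 4, called WT as in the labels, came from Mmp14(f/f) littermates that carried no Cre. All mice carried the PyMT transgene and the floxed alleles, were congenic FVB/NJ and were 3 to 4 months old. The series title names the carcinoma cells as the target, but the MMTV promoter is also known to act in some cells outside the mammary gland, lymphoid cells among them. The groups differ both in Cre and in Mmp14. The tumors, of inguinal and thoracic glands, are called biological replicates, but it is not stated that each came from a different mouse. The p-values therefore measure the spread between these 8 samples.

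T cells recognise antigen through a receptor whose signal is carried into the cell by the CD3 chains, and the coreceptors CD4 and CD8 divide them into helper and cytotoxic lineages. Cytotoxic T cells and natural killer (NK) cells kill through granules that hold perforin, which opens the target membrane, and granzymes, serine proteases that enter through it. Regulatory T cells, defined by the transcription factor FOXP3, restrain these responses. In PyMT tumors lymphocytes lie among far more numerous carcinoma cells, macrophages and fibroblasts.

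None of the 10 genes passed the test between cKO and WT tumors, and 9 of the 10 lay less than 1 log2 unit above the array median. Cd4, the helper coreceptor, was the exception in level and had the widest difference, with 3 of 4 cKO tumors above all WT tumors and the fourth below them. The killing genes Gzma, Gzmb and Prf1 had lower means in cKO tumors and the CD3 chain Cd3g had nearly equal means. Limma's test over 23521 rows called 0 of the 10, beside 2 rows in all (0.0085%), with adjusted p from 0.437 to 0.995. At an unadjusted p below 0.05 it gave 1 of the 10, Gzmb, where 9.68% of all rows reached that level. Groups that did not overlap were found in 0 of the 10 and in 5.42% of all rows. The 10 split into 5 higher and 5 lower, with a median difference of −0.04 on the log2 scale, beside 0.02 over all rows. In whole tumors, fewer cells of a type and less RNA per cell cannot be told apart.

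Each array gave log2 signals with a median between 3.64 and 3.71. The labels were checked on Mmp14, which averaged 7.72 ± 0.22 in cKO and 9.12 ± 0.19 in WT tumors (SD, n = 4 each), with no overlap and a limma adjusted p of 0.0444. Leaving out single tumors moved that p between 0.0429 and 0.211. The tissue label was checked on luminal epithelial markers such as keratins and Epcam. All 10 of these markers lay at least 1 log2 unit above the array median, with a summed linear signal of 11433 to 14290 in cKO and 12357 to 16227 in WT tumors.

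The level of the 10 genes was set against the array median and against olfactory receptor genes, which belong to sensory neurons and served as a picture of dim rows. This second yardstick was chosen after the values were seen, and rows differ in their probes, so it shows only where a signal lies on the array. The mean over the 8 tumors was highest for Cd4, at 1.30 above the array median. The next was Nkg7 at 0.96, followed by Cd3g at 0.84, Cd3e at 0.62, Prf1 at 0.51 and Gzmb at 0.36. Cd8a stood at −0.01, Foxp3 at −0.28, Ncr1 at −0.78 and Gzma at −1.01, so that 4 of the 10 lay below the median. The 1091 olfactory receptor rows had a median of 2.16 and a 95th percentile of 3.48. Foxp3, Ncr1 and Gzma, with means of 3.40, 2.90 and 2.66, lay under that percentile, and only Cd4, at 4.98, lay above the 99th percentile of 4.72. The RNA of the dim genes was therefore not shown to be above background, and small differences between them are differences of signal. Other defining markers were dim too. The third CD3 chain Cd3d lay at −1.05 relative to the array median, the CD8 beta chain gene Cd8b1 at −0.59 and the NK receptor gene Klrb1c at −1.32.

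**Figure D1:**
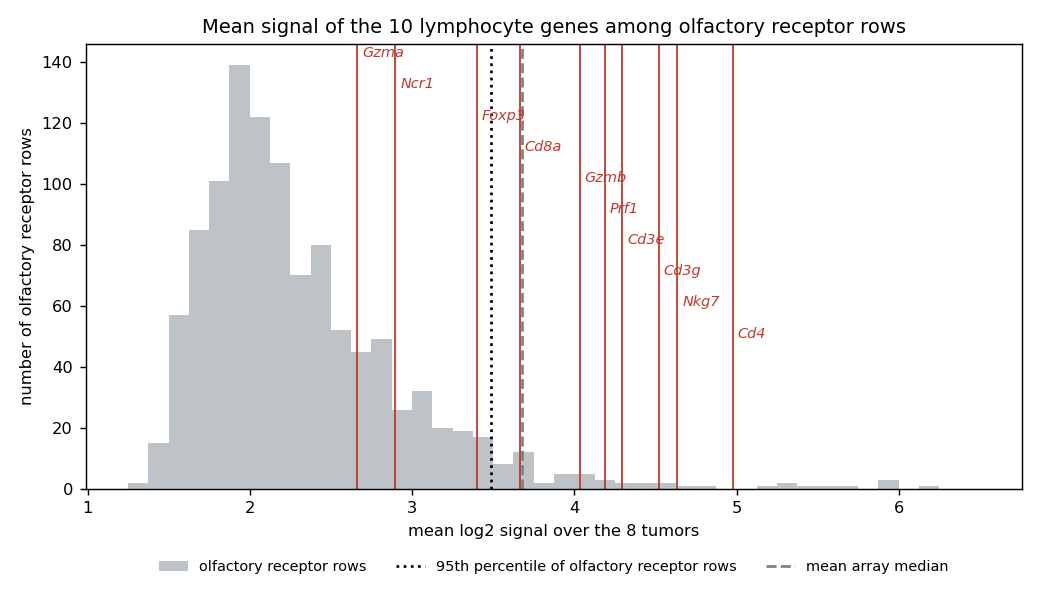
Histogram of the mean log2 signal over the 8 tumors (x axis) of 1091 olfactory receptor rows (y axis, number of rows), with the 10 lymphocyte genes as red lines, the 95th percentile of the olfactory rows (3.48) dotted and the mean array median dashed. Gzma, Ncr1 and Foxp3 lie left of the dotted line and Cd4 lies farthest to the right, at 4.98.

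CD3 epsilon and CD3 gamma are signalling chains of the T cell receptor complex. Cd3e had log2 signals of 4.09, 4.50, 4.43 and 4.54 in cKO tumors 1 to 4, against 4.22, 4.25, 4.70 and 3.62 in WT tumors 1 to 4. The groups overlapped, and both the highest and the lowest of the 8 values were in WT tumors. The difference was 0.19 (SE 0.21, 95% confidence interval −0.28 to 0.67), with a limma adjusted p of 0.811 and an exact two-sided permutation p of 0.486. Cd3g had 4.54, 4.43, 4.51 and 4.61 in cKO tumors, against 4.79, 4.69, 4.63 and 3.96 in WT tumors. Here WT 4 lay below every cKO tumor and the other WT tumors above every one of them. The difference was 0.01 (SE 0.17, interval −0.37 to 0.39, adjusted p = 0.995 from limma, exact permutation p = 1). The means hid this order: without WT 4 the difference of Cd3g was −0.18 and that of Cd3e 0.0003. Without WT 3 the difference of Cd3e was 0.36.

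The coreceptors and Foxp3 separate T cell lineages. Cd4 had log2 signals of 5.28, 4.25, 5.61 and 6.13 in cKO tumors, against 4.63, 4.59, 4.83 and 4.50 in WT tumors. The WT tumors lay close together and the cKO tumors were spread on both sides of them, with a mean of 5.32 ± 0.79 in cKO and 4.64 ± 0.14 in WT (SD, n = 4 each). The difference of 0.68 (SE 0.33, interval −0.07 to 1.44) corresponds to a signal ratio of 1.60 (interval 0.95 to 2.70), with a limma adjusted p of 0.557 and an exact permutation p of 0.143. It was 1.04 without cKO 2 (adjusted p = 0.168 from limma) and 0.41 without cKO 4. Cd8a had 3.40, 3.51, 3.72 and 3.69 in cKO tumors, against 3.92, 3.78, 3.92 and 3.38 in WT tumors. The 3 highest values were those of WT 1, 2 and 3, and the lowest that of WT 4. The difference was −0.17 (SE 0.14, interval −0.48 to 0.14, adjusted p = 0.725 from limma), and −0.30 without WT 4. The row of Cd8a lay at the array median. Foxp3, below that median, had 3.33, 3.40, 3.65 and 3.52 in cKO tumors, against 3.30, 3.29, 3.34 and 3.35 in WT tumors. Of the cKO tumors 3 lay above every WT tumor. The difference was 0.15 (SE 0.09, interval −0.04 to 0.35, adjusted p = 0.610 from limma, exact permutation p = 0.0857), and 0.10 without cKO 3.

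Cd8a and Foxp3 were also set against each other within each tumor, as the log2 signal of Cd8a minus that of Foxp3. Its zero point depends on the probes, and since Foxp3 was not shown to be above background it is a difference of signals and no measure of the cells present. It was 0.06, 0.11, 0.07 and 0.17 in cKO tumors, against 0.62, 0.49, 0.59 and 0.02 in WT tumors. All cKO tumors lay between WT 4 and the other WT tumors. The mean was 0.10 ± 0.05 in cKO and 0.43 ± 0.28 in WT (SD, n = 4 each), a difference of −0.33 with an exact two-sided permutation p of 0.143. Without WT 4 the difference was −0.46 and the exact p 0.0286, the smallest that 4 against 3 allows. Leaving out WT 4 removes the only overlap, so that p followed from the choice of tumor and lends no support. Cd8a minus Cd4 averaged −1.74 ± 0.72 in cKO and −0.88 ± 0.18 in WT tumors (SD, n = 4 each), a difference of −0.85 with an exact permutation p of 0.114. Without cKO 2, whose value of −0.74 lay among the WT tumors, it was −1.19 with an exact p of 0.0286. Here too the tumor left out was the only overlap, so the p lends no support.

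**Figure D2:**
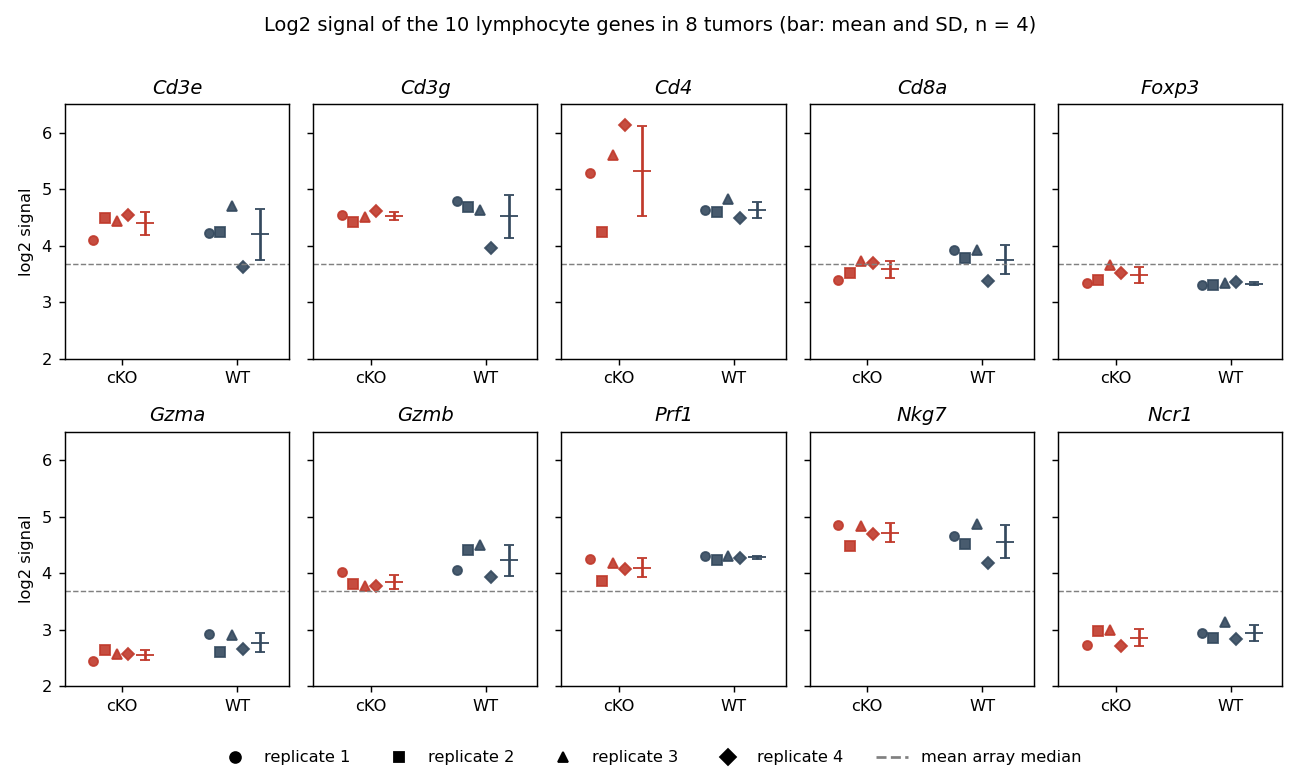
Log2 signal (y axis) of the 10 genes in each tumor, cKO left and WT right in every panel; marker shapes give the replicate number, bars the mean and SD of 4 tumors, and the dashed line the mean array median. In Cd4 the cKO tumors run from 4.25 to 6.13 and the WT tumors from 4.50 to 4.83, and in Cd3e, Cd3g, Cd8a and Nkg7 the lowest of the 8 values is that of WT 4.

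Perforin and the granzymes are the killing proteins of the granules. Of these, granzyme A and granzyme B are proteases that differ in the sites they cut, and granzyme B activates caspases. Gzmb had log2 signals of 4.02, 3.81, 3.76 and 3.77 in cKO tumors, against 4.05, 4.42, 4.49 and 3.94 in WT tumors. The ranges met only through cKO 1, which lay above WT 4. The difference was −0.38 (SE 0.14, interval −0.69 to −0.07), with an unadjusted p of 0.0204, an adjusted p of 0.437 from limma and an exact permutation p of 0.0571. Gzma, a row at about 1 log2 unit below the array median, had 2.44, 2.64, 2.57 and 2.56 in cKO tumors, against 2.92, 2.60, 2.91 and 2.66 in WT tumors. Only cKO 2 overlapped the WT range. The difference was −0.22 (SE 0.10, interval −0.45 to 0.01, adjusted p = 0.530 from limma, exact permutation p = 0.0571). Prf1 had 4.26, 3.87, 4.18 and 4.08 in cKO tumors, against 4.30, 4.23, 4.30 and 4.27 in WT tumors. The WT tumors stood within a narrow band and 3 of 4 cKO tumors lay below it. The difference was −0.18 (SE 0.10, interval −0.40 to 0.03, adjusted p = 0.584 from limma, exact permutation p = 0.0571). With 4 against 4 tumors the exact test cannot go below 0.0286. All 3 differences stayed below 0 with any 1 tumor left out, between −0.48 and −0.30 for Gzmb, −0.28 and −0.17 for Gzma, and −0.24 and −0.11 for Prf1. These 3 genes were grouped by their role, and no test was made over them as a group.

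NKG7 is a granule membrane protein of NK and cytotoxic T cells, and NCR1 (NKp46) an activating receptor that marks NK cells. Nkg7 had 4.85, 4.48, 4.83 and 4.70 in cKO tumors, against 4.66, 4.52, 4.88 and 4.17 in WT tumors. Unlike Gzma, Gzmb and Prf1 it had a higher mean in cKO tumors, by 0.16 (SE 0.15, interval −0.19 to 0.50, adjusted p = 0.781 from limma), and by 0.03 without WT 4. Ncr1 had 2.74, 2.98, 2.99 and 2.72 in cKO tumors, against 2.94, 2.84, 3.14 and 2.83 in WT tumors. Its row lay below the array median and the groups overlapped, with a difference of −0.08 (SE 0.11, interval −0.32 to 0.16, adjusted p = 0.839 from limma). It was −0.02 without WT 3 and −0.13 without cKO 3.

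**Figure D3:**
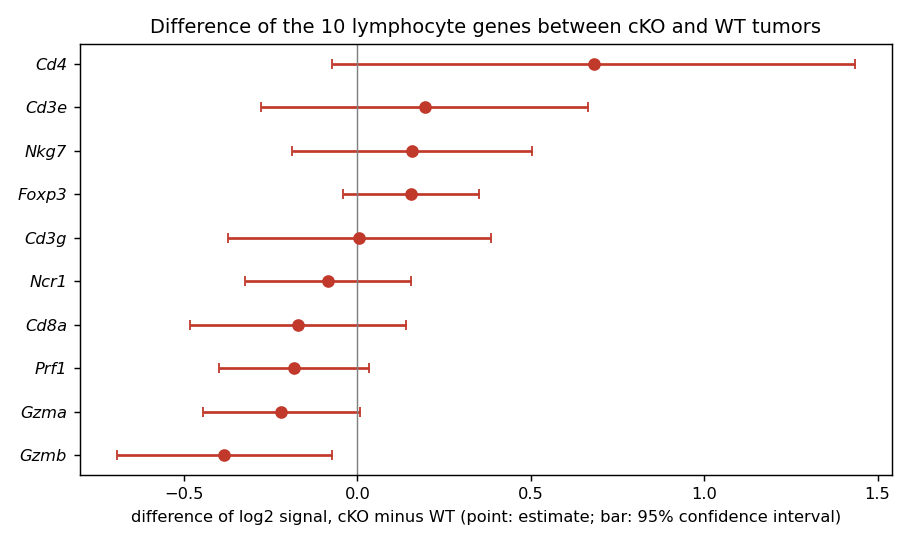
Difference of log2 signal, cKO minus WT (x axis), for each of the 10 genes (y axis), with limma's unadjusted 95% confidence interval from 4 tumors per group. The intervals of 9 genes include 0, that of Gzmb runs from −0.69 to −0.07 without passing after adjustment, and that of Cd4 is the widest, from −0.07 to 1.44.

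Promoter sequences of the 3 killing genes, grouped by their role, are shown because their means lay on the same side of WT. The means of Cd8a and Ncr1 lay on that side too. The sequences are the 250 bases before an annotated start, from RefSeq on GRCm38.p6, in which 9 of the 10 genes had an entry and Cd4 did not. The windows of Gzma and Gzmb end where the gene record begins. For Prf1 the gene record begins at 61297751, inside the window. The end of that window, with its T-box match, therefore lies within the gene as recorded. Letters in capitals match 1 of 4 short motifs on either strand, namely the ETS core GGAA, the RUNX motif TGTGGT, the T-box motif AGGTGT and the AP-1 motif TGANTCA, and no 2 of the matches overlap.
Gzma, chr13:113100982-113101231, minus strand: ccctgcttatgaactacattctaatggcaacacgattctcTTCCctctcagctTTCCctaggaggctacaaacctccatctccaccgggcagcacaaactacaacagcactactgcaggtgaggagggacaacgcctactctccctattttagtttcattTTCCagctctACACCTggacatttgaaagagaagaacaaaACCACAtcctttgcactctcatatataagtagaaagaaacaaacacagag
Gzmb, chr14:56262335-56262584, minus strand: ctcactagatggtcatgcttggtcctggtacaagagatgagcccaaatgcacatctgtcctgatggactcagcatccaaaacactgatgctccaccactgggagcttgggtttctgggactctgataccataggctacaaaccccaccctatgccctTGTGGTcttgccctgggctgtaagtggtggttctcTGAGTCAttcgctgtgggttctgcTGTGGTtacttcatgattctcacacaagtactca
Prf1, chr10:61297586-61297835, plus strand: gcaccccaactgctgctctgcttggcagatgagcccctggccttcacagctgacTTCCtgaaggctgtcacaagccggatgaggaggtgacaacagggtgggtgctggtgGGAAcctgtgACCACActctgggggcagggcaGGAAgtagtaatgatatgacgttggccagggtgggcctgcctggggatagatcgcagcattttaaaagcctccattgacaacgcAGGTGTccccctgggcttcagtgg
The window of Gzma held 3 ETS cores, 1 RUNX and 1 T-box match, and that of Prf1 held the same numbers. The window of Gzmb held 2 RUNX matches and 1 AP-1 match. Among 32851 promoter windows of this length 93.4% held an ETS core, 14.0% the RUNX, 11.8% the T-box and 6.75% the AP-1 motif. These are matches of letters and not measured sites, and a link to the signals of the 3 genes was not tested. Of the factors that bind such motifs, Runx3, which acts in CD8 T cells and NK cells, stood at −0.30 with no overlap (adjusted p = 0.379 from limma), and the T-box factors Tbx21 and Eomes at 0.08 and −0.09 with overlapping groups. Runx3 was named for its small p, and was the 1 of 11 lineage factors without overlap, beside 5.42% of all rows. ETS, AP-1 and other RUNX factors are not given here, so these values show no link between factors and motifs. The mean of Runx3 over the 8 tumors, 3.37, lay under the 95th percentile of the olfactory rows, and so did that of Eomes, 2.65, so neither was shown to be above background.

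Gzmb lies in a cluster of granzyme genes that also holds Gzmc, Gzmf, Gzmn, Gzmg and Gzmd, of which Gzmd, Gzmf and Gzmg are close relatives in sequence whose probes may share signal. Gzmg had log2 signals of 4.18, 3.52, 3.60 and 3.19 in cKO tumors, against 4.41, 4.77, 4.46 and 5.14 in WT tumors. All cKO tumors lay below all WT tumors, with a difference of −1.07 (SE 0.23, adjusted p = 0.196 from limma, exact permutation p = 0.0286). Gzmf had 3.02, 2.69, 2.29 and 2.33 in cKO tumors, against 3.17, 3.81, 3.44 and 5.11 in WT tumors. Its groups did not overlap either, and the difference of −1.30 (SE 0.38, adjusted p = 0.331 from limma) was −0.89 without WT 4. Gzmd differed by −0.72 (SE 0.29, adjusted p = 0.482 from limma) with overlapping groups, Gzmc by −0.16 (adjusted p = 0.547) and Gzmn by 0.11 (adjusted p = 0.856). WT 4, which had the highest Gzmd, Gzmf and Gzmg of all tumors, had the lowest Gzmb among WT tumors. None of these neighbours passed. Groups that did not overlap were found in 2 of 16 other granule genes, beside 5.42% of all rows. The rows of Gzmf, Gzmd, Gzmc and Gzmn averaged below the array median and under the 95th percentile of the olfactory rows, so they were not shown to be above background. The row of Gzmg averaged less than 1 log2 unit above the array median.

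**Figure D4:**
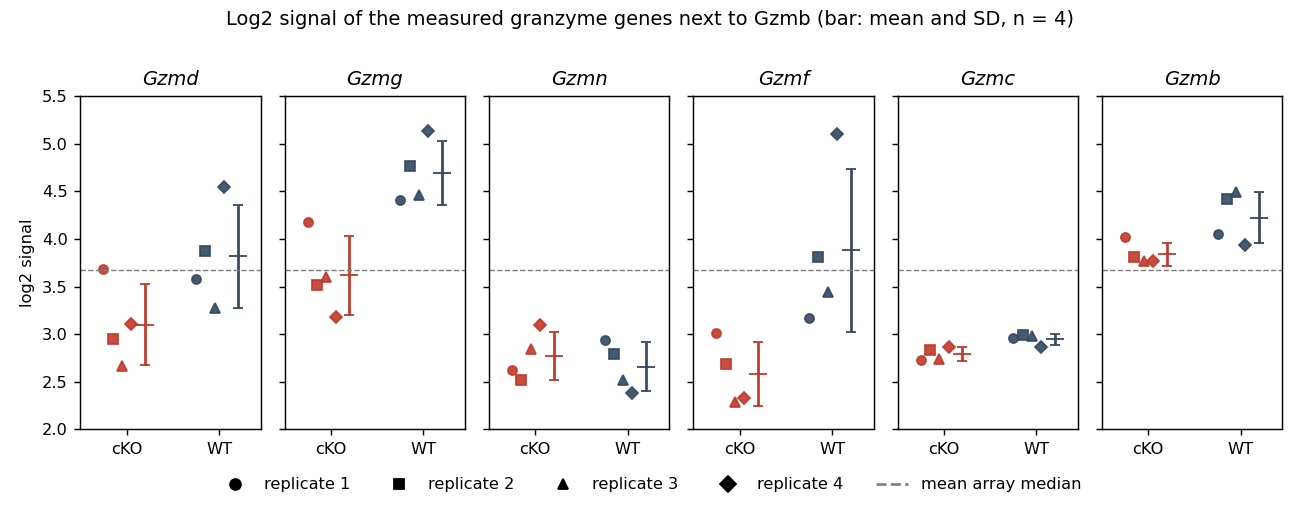
Log2 signal (y axis) of 6 measured granzyme genes of the cluster in their order along the chromosome, cKO left and WT right in each panel, with marker shapes for the replicate, bars for the mean and SD of 4 tumors and the mean array median dashed. In Gzmg and Gzmf every cKO tumor lies below every WT tumor, and WT 4 has the highest value at 5.14 and 5.11.

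Further lists of lymphocyte genes were described by counts, beside the 43.5% of all rows that were lower in cKO. None of their members passed in either direction. Groups that did not overlap, as in 5.42% of all rows, were found in few of them. They were 1 of 14 regulatory T cell genes, 2 of 16 granule genes, 1 of 11 lineage factors and 3 of 19 NK genes. The T cell receptor, checkpoint and cytokine lists had 0. Of 14 other regulatory T cell genes 11 were lower and 3 higher, with a median difference of −0.09, so that most stood opposite to Foxp3. Of these 14, 10 lay near or below the array median, and Foxp3 itself was not shown to be above background. Ikzf4, a partner of FOXP3, stood at −0.43 (adjusted p = 0.315 from limma) with no overlap, Lrrc32, which presents latent TGF-beta on regulatory T cells and is also made by endothelium, at −0.55, and the interleukin receptor chains Il2ra and Il2rb at −0.28 and −0.20. Without WT 1 the difference of Il2ra was −0.09. Of 16 other granule genes 10 were lower, with a median of −0.14, and 11 of the 16 lay near or below the array median. Of 14 other genes of the T cell receptor complex and its signalling 8 were higher and 6 lower, with a median of 0.03. In this list 11 of the 14 lay near or below the array median. In that list the phosphatase Ptpn22 stood at −0.51 and the adaptor Lcp2, shared with myeloid cells, at 0.55, while Cd3d stood at −0.22 and Cd5 at 0.19. Of 11 lineage factors 6 were higher, with Gata3, which luminal epithelium also expresses, at −0.20, Ccr7 at 0.12 and Il7r at 0.21. Among the 11, 8 lay near or below the array median.

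Of 19 NK receptors and adaptors 11 were higher and 8 lower, and 17 of the 19 lay near or below the array median. Tyrobp, an adaptor that NK cells share with macrophages, was higher by 0.53 with no overlap (adjusted p = 0.305 from limma). Klrd1 stood at −0.32, Il18rap at −0.52 and the integrin Itga2 at −0.62. Of 12 checkpoint genes 7 were higher, with the PD-1 ligands Cd274 at −0.31 and Pdcd1lg2 at 0.21, Cd160 at 0.16 and Tox at 0.15. Among the 12, 7 lay near or below the array median. Lag3, a checkpoint receptor gene that neighbours Cd4 on the chromosome, stood at −0.04. Of 16 effector cytokines 13 were higher, with a median of 0.07 (0.03 to 0.13 with 1 tumor left out), and 14 of the 16 lay near or below the array median. The 2 with a mean of at least 5 had a median of −0.12. Among them the chemokines Ccl4, Ccl3 and Ccl5 stood at 0.21, 0.17 and −0.27, and Il2 at 0.12.

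Markers of other cell types were read beside these values and beside the 43.5% of all rows that were lower in cKO. None of these markers passed in either direction. Of 10 pan-leukocyte markers 9 were higher in cKO, with a median of 0.22 and a summed linear signal of 535 to 634 in cKO and 408 to 558 in WT tumors. Their mean score, the log2 signal minus each gene's mean over all tumors, was highest in cKO 4 at 0.18 and lowest in WT 4 at −0.30. Of 14 macrophage markers 9 were higher, with a median of 0.38, a summed signal of 1839 to 2494 in cKO and 1673 to 2188 in WT tumors, and the same 2 tumors at the ends (0.25 in cKO 4 and −0.27 in WT 4). Without WT 4 the medians were 0.14 for the pan-leukocyte and 0.24 for the macrophage markers. In both lists and in Cd4, cKO 4 was thus the highest tumor, and in both lists and in Cd3e, Cd3g, Cd8a and Nkg7, WT 4 was the lowest. Between these ends the macrophage order differed from that of Cd4. The macrophage score was −0.11 in cKO 3, where Cd4 was 5.61, and 0.11 in cKO 2, where Cd4 was lowest. In the same tumors the pan-leukocyte score was 0.10 and 0.04. All 9 B cell markers lay near or below the array median, with a median difference of 0.01. Each of the 10 fibroblast markers had a lower mean in cKO tumors, with a median difference of −0.98 and a summed signal of 791 to 3999 in cKO and 4007 to 4852 in WT tumors. The median was −0.57 without cKO 3 and −1.48 without cKO 4. The mean scores of these markers were 0.05, −0.71, −1.82 and 0.65 in cKO tumors, against 0.54, 0.71, 0.50 and 0.08 in WT tumors, so cKO 4 lay among the WT tumors and cKO 3 far below the rest. All 10 endothelial markers were lower in cKO, with a median of −0.26 and a summed signal of 545 to 941 in cKO and 683 to 1000.4 in WT tumors, and 9 of 10 luminal epithelial markers were lower, with a median of −0.20. The part of these cells in the lymphocyte values was not tested.

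How the 10 genes varied together was read over the 8 tumors in 45 pairs, of which 36 had a positive Pearson r. No pair passed an exact permutation test adjusted over the 45 pairs, for Pearson's r or Spearman's rho, and 2 had an unadjusted p below 0.05 for r. Cd3g and Cd8a gave r = 0.76 (exact permutation p = 0.00727, adjusted 0.327) and rho = 0.86 (exact p = 0.0107, adjusted 0.241), with r = 0.63 without the 2 tumors farthest from the median of Cd3g. After subtraction of group means their r was 0.84 (permutation p = 0.0140, adjusted 0.314). Values centred within groups are not freely exchangeable between tumors, so this p is only approximate. Foxp3 and Gzmb gave r = −0.67 (exact permutation p = 0.0479, adjusted 0.414) and rho = −0.86 (exact p = 0.0107, adjusted 0.241), with r = −0.63 without the 2 farthest tumors and −0.38 after subtraction of group means. For Cd3e and Cd3g, chains of one complex, r was 0.67 (exact permutation p = 0.0994, adjusted 0.497) and rho 0.21 (exact p = 0.619, adjusted 0.753), and r was −0.43 without the 2 farthest tumors, WT 3 and WT 4, so the relation rested on those. Cd4, the only one of the 10 at least 1 log2 unit above the array median, was compared with 9940 other genes of mean signal of at least 5. After subtraction of group means the most alike over the 8 tumors were the lipogenic gene Thrsp (r = 0.99), the RNA polymerase II subunit Polr2b (r = 0.99) and the mitochondrial protease Pitrm1 (r = 0.98), the highest among many and given as a description. Cd4 had an SD of 0.79 in cKO and 0.14 in WT tumors, so these r values rest mainly on the cKO tumors.

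The array number in the labels runs from 1 to 8, with 2 tumors of each group in 1 to 4 and in 5 to 8, though the labels call neither set a batch. Within arrays 1 to 4 and 5 to 8 the difference of Gzmb was −0.32 and −0.45, that of Gzma −0.22 and −0.22, and that of Prf1 −0.20 and −0.16. Cd4 differed by 0.15 and 1.21. Cd8a differed by −0.40 and 0.06 and Cd3g by −0.25 and 0.26, so that both changed sign between the sets.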

How the data were processed

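RNA of 8 whole tumors, 4 cKO and 4 WT, was read on Affymetrix mouse arrays, from 400 ng of total RNA each per the labels. The deposited values are log2 signals. RMA (background correction, normalization, probe summary) and limma are named in the submitters' processing notes; no version, parameter or detection call is given there. Precision is set by how many arrays there are.

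Of 41345 rows, 23521 had 1 symbol in the platform annotation and were tested, 1814 had several and 16010 are unnamed here. Symbols were updated by gene identifier from RefSeq GRCm38.p6. A row for COX2 and Prf1 and a row for Ccdc22, Foxp3 and Ppp1r3f were not used. Any 2 arrays correlated with r from 0.976 to 0.989 and no 2 were duplicates.

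Limma 3.58.1 in R 4.3.3 (lmFit, eBayes) tested cKO minus WT, two-sided, with Benjamini-Hochberg adjustment over 23521 rows and a threshold of 0.05. Confidence intervals are unadjusted and at 95%. Exact permutation tests between the groups used all 70 divisions of the 8 tumors, or all divisions of those remaining where 1 was left out. Tests of gene pairs used all orderings of the 8 tumors. On simulated data for this comparison over 23521 rows, 29.6% of changes of 0.5 and 88.0% of changes of 1 on the log2 scale were recovered, with 200 rows changed; few real rows passed, so these shares do not carry over. The genes named are the 10, Mmp14, up to 4 per list with the smallest p, and the 3 most like Cd4. Cd8b1, Klrb1c, Lag3, Gzmn, Tbx21 and Eomes were named after their values were seen. The 10 genes and the 15 lists were chosen with earlier results of these data known. Replicate numbers are shared by the groups, and the labels do not say whether tumors of the same number belong together. Tumors of the same number correlated between −0.24 and 0.29 in their deviations, which cannot decide this. Alternatives were other scaling, a filter on dim rows, all rows, another prior, another row per gene, 2 blocks and leaving out each tumor.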

Additional observations from a re-analysis of the deposited data

Results flagged for a closer look

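In 116 groups of 4 tumors, for 58 genes, 1 value stood apart from the other 3 by Dixon's criterion, where chance gives about 1 in 20 groups. The chemokine gene Ccl3 had a log2 signal of 4.27 in cKO 3, against 4.57 to 4.61 in the other cKO tumors. None of the values of the 10 lymphocyte genes stood apart in this way.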

How the results depend on the processing

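No alternative brought any of the 10 genes past the threshold, and 5 of the 10 were higher in cKO under every setting that could be computed except without WT 4, cKO 1 or cKO 4, where 4 were. The filter on a mean of at least 5 left none of the 10, so it gave no value for them, and another choice of row changed none, since each has 1 row. Cd3g, at 0.01, ran from −0.18 to 0.10 with 1 tumor left out and changed sign without cKO 1 (−0.0014), cKO 4 (−0.02) and WT 4 (−0.18). With 1 tumor left out, Cd8a minus Foxp3 ran from −0.46 to −0.26 (exact p 0.0286 to 0.171) and Cd8a minus Cd4 from −1.19 to −0.62 (0.0286 to 0.171). In each, 0.0286 came only from leaving out the 1 tumor through which the groups overlapped. Mmp14 ran from −1.48 to −1.30 without 1 tumor. Its difference stayed at −1.40 with the replicate block (adjusted p 0.353) and with the array number block (adjusted p 0.0708), above the threshold in both. The number of rows past the threshold, 2, became 8 with all rows of the table tested, 0 with the replicate block, 1 with the array number block, and 0 to 3 without 1 tumor. Most list medians were small, and several moved under some settings. The T cell receptor genes went from 0.03 over all 14 to 0.55 with the filter on a mean of at least 5, which left 1 gene. With the filter on a mean of at least 5 the effector cytokines stood at −0.12 (2 genes, against 0.07 over all 16), the regulatory T cell genes at −0.15 and the lineage factors at −0.06, and with 1 tumor left out the lineage factors ran from −0.02 to 0.10 and the regulatory T cell genes from −0.16 to −0.07. The replicate block changed no call among the 10 genes. Why the number of rows changed was not tested. No detection call was used, so what the dim rows can show is limited by background.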
